A study of Homo sapiens with 9 samples.

Results

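The 39 HOX cluster genes are the genes whose symbol is HOX followed by a cluster letter A to D and a number. They were chosen by symbol alone, with no measured value, out of 58381 gene rows in the count table. The HOXA cluster holds 11 of them, HOXB holds 10, HOXC holds 9 and HOXD holds 9. All 9 RNA-seq libraries come from TC-32, an established Ewing sarcoma cell line, a tumour type driven by a fusion of EWSR1 to an ETS family gene. Every group carries the lentiviral vector pLOC: RFP cells carry a red fluorescent protein, and ETS1-Low and ETS1-High cells carry an ETS1 cDNA at a lower and a higher labelled level. Each group has 3 libraries. Transduced cells were selected with puromycin and sorted as single cells, per the labels' protocols, so a group may descend from 1 or a few clones. How many is not given in the sources used here, and clone and ETS1 level cannot be told apart. The labels do not say whether the libraries of a group came from separate cultures, so p-values measure only the spread between these libraries.

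HOX genes encode homeodomain transcription factors that set positional identity along the body axis. They lie in 4 clusters on different chromosomes, and genes in the same position of each cluster are paralogues with the same number. Low numbers act in anterior parts of the embryo and high numbers in posterior parts and limbs. HOX proteins bind DNA together with TALE homeodomain cofactors of the PBX, MEIS and PREP families, and their chromatin is kept silent or active by Polycomb and Trithorax proteins. In Ewing sarcoma, posterior HOXD genes are known for their high expression.

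Library totals ran from 39484704 to 46654734 expected counts, the estimated numbers of reads per gene. ETS1 itself, the gene that was added, was at 1.81, 2.03 and 2.15 CPM, its share of the library's counts after scaling, in the 3 RFP libraries, at 10.6, 10.9 and 10.3 in ETS1-Low, and at 19.4, 18.2 and 19.7 in ETS1-High. The order was that of the labels in every library, although a count cannot separate the added cDNA from the cell's own ETS1. All 12 markers of Ewing sarcoma that were looked up passed the filter on low counts, and all 12 were called higher in each ETS1 group by the test described below, beside 37% (ETS1-High) and 37.9% (ETS1-Low) of all genes. Their summed level ranged from 2707 to 2824 CPM in RFP, from 4378 to 4459 in ETS1-Low and from 4505 to 4528 in ETS1-High. Of the Ewing sarcoma markers, 11 were above 1 CPM in the mean of every group. Of 15 markers of other cell types, 10 stayed under 1 CPM in every library, and CD3E, PAX2 and LHX1 were at 0. KRT8, KRT18, PECAM1, CD68 and NEFL reached 1 CPM in at least 1 library. Of these 15, 7 were tested, with 4 called higher and 1 lower in ETS1-Low, 71.4% beside 74.1% of all genes. In ETS1-High 2 were higher and 2 lower, 57.1% beside 74.2%. The summed level of these 15 ranged from 88.3 to 93.7 CPM in RFP, from 177 to 188 in ETS1-Low and from 122 to 126 in ETS1-High. The part of either marker sum in the HOX results was not tested.

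The 3 comparisons ask which HOX genes differ between ETS1-High and RFP, between ETS1-Low and RFP, and between the ETS1 levels. The test was edgeR's quasi-likelihood test over all 17235 genes that passed a filter on low counts, with Benjamini-Hochberg adjustment. Genes with an adjusted p below 0.05 count as called. Fold changes are on the log2 scale of CPM scaled by TMM, a normalization that aligns the bulk of genes between libraries. Of the HOX genes, 26 passed the filter: none of HOXA, 9 of HOXB, 9 of HOXC and 8 of HOXD. The 13 that did not pass are the 11 HOXA genes, HOXB1 and HOXD1, and their largest count in any library was 10.

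**Figure D1:**
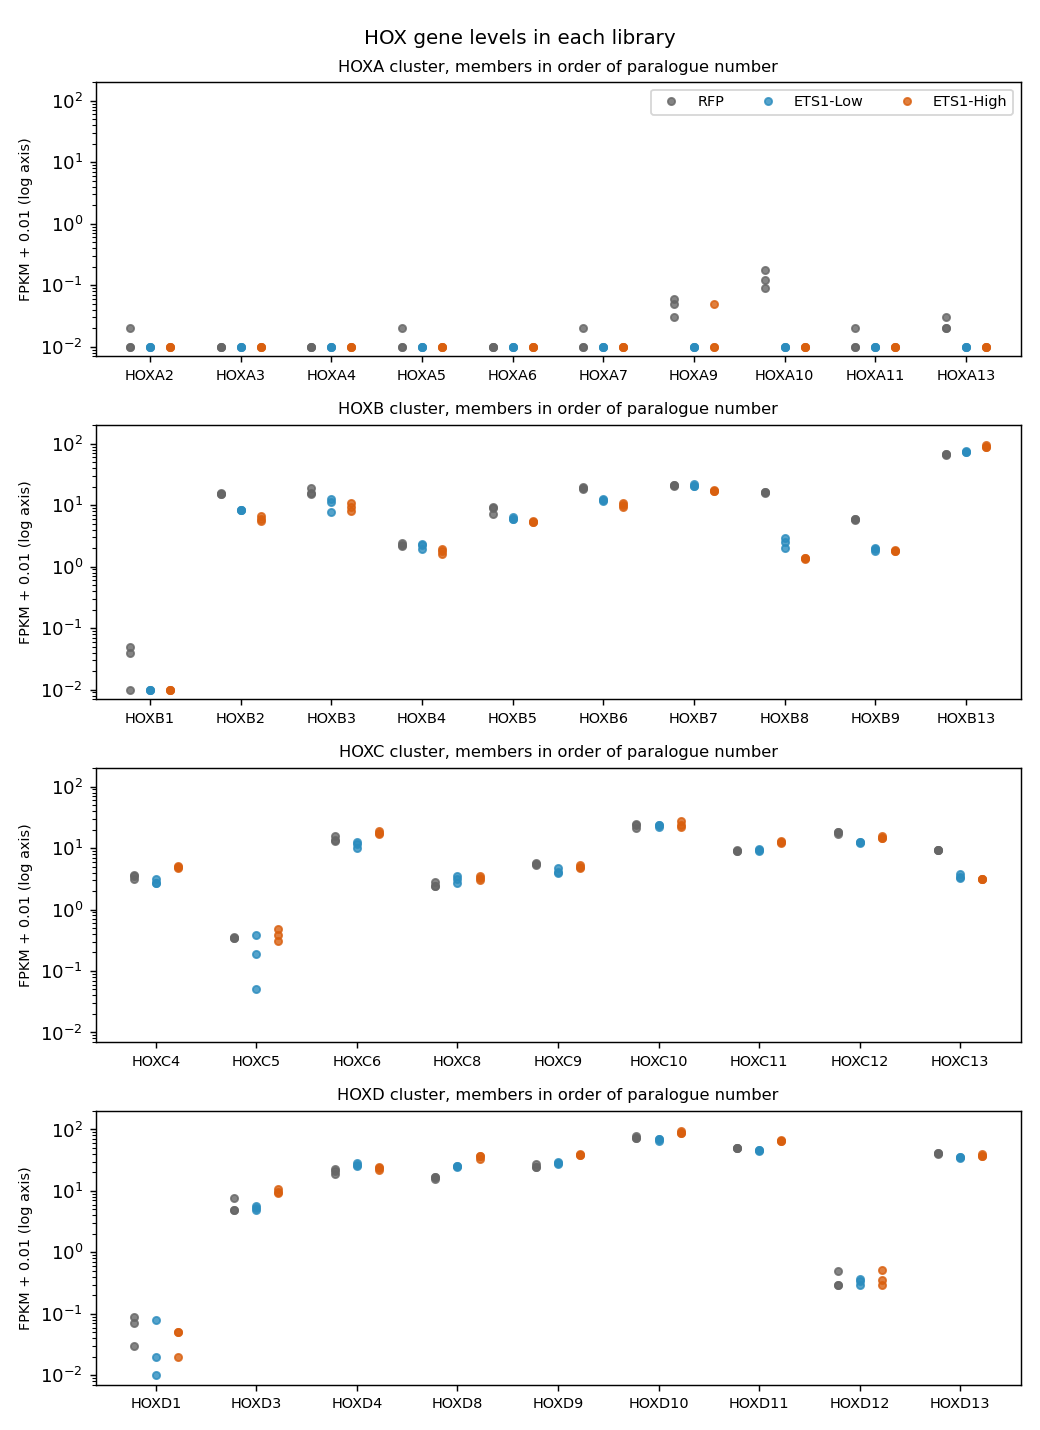
Level of 38 of the 39 HOX genes in each library, as FPKM + 0.01 on a log axis, by cluster and in order of paralogue number; each point is 1 library. The HOXA genes plotted, HOXB1 and HOXD1 lie near the bottom of the axis, and HOXD10 and HOXB13 near the top in all 3 groups.

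TC-32 cells expressed HOXB, HOXC and HOXD and almost no HOXA. FPKM, a read count scaled for gene length and library size, was used to compare levels between genes. The highest mean FPKM over the groups was that of HOXD10, a posterior gene of limb and trunk patterning, at 74.8 in RFP, 68.8 in ETS1-Low and 89.5 in ETS1-High. HOXB13, a posterior gene known for its role in prostate, was next at 67.7, 74.3 and 89.8 FPKM in the same order. HOXD11 and HOXD13, both needed for limb skeleton and digits, followed at 50.01 and 40.8 FPKM in RFP. These 4 genes carried 47.4% of all HOX FPKM in RFP, 50.4% in ETS1-Low and 53.3% in ETS1-High.

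The make-up of HOX expression by cluster differed between the groups. HOXD took 47.6% ± 0.46 of the summed HOX FPKM in RFP, 53.1% ± 0.32 in ETS1-Low and 56.9% ± 0.80 in ETS1-High (SD, n = 3). HOXB took 35.0% ± 0.27, 31.2% ± 0.28 and 26.9% ± 0.38 in the same order. The HOXD share was thus highest and the HOXB share lowest in ETS1-High, with no overlap between libraries of different groups. HOXC took 17.3% ± 0.33, 15.7% ± 0.35 and 16.2% ± 0.47. These values are shares of a sum. Among the sums of single clusters, the order of the groups differed between CPM and FPKM in HOXB only. The sum over all HOX genes changed order too: RFP and ETS1-Low were at 860 and 870 CPM, but at 492 and 445 FPKM. Summed CPM is not divided by gene length and is scaled between libraries by TMM. Summed HOXB was 358 ± 4.77 CPM in RFP, 355 ± 4.51 in ETS1-Low and 381 ± 15.2 in ETS1-High, while summed HOXB FPKM was 172 ± 4.54, 139 ± 2.42 and 143 ± 4.74. Summed HOXD was 342 ± 7.32, 376 ± 8.85 and 462 ± 5.53 CPM, and HOXC was 160 ± 2.98, 139 ± 0.85 and 169 ± 5.91 CPM.

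HOXB divided into 2 parts that moved in opposite directions, a split chosen after the values were seen. HOXB1 to HOXB9 summed to 145, 151 and 147 CPM in the RFP libraries, to 101, 103 and 99.2 in ETS1-Low and to 78.5, 82.9 and 81.1 in ETS1-High. HOXB13 alone was at 208, 211 and 213 CPM, then 256, 247 and 259, then 294, 316 and 291. So the HOXB total, near level in CPM, joins a lower sum over HOXB1 to HOXB9 and a higher HOXB13. In FPKM that total was 0.827 of RFP in ETS1-High and 0.807 in ETS1-Low. The sum over HOXB1 to HOXB9 in ETS1-High was 0.547 of that in RFP in CPM and 0.504 in FPKM. HOXB13 lies 98.4 kb from HOXB9, the widest gap between neighbours in the 4 clusters.

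**Figure D2:**
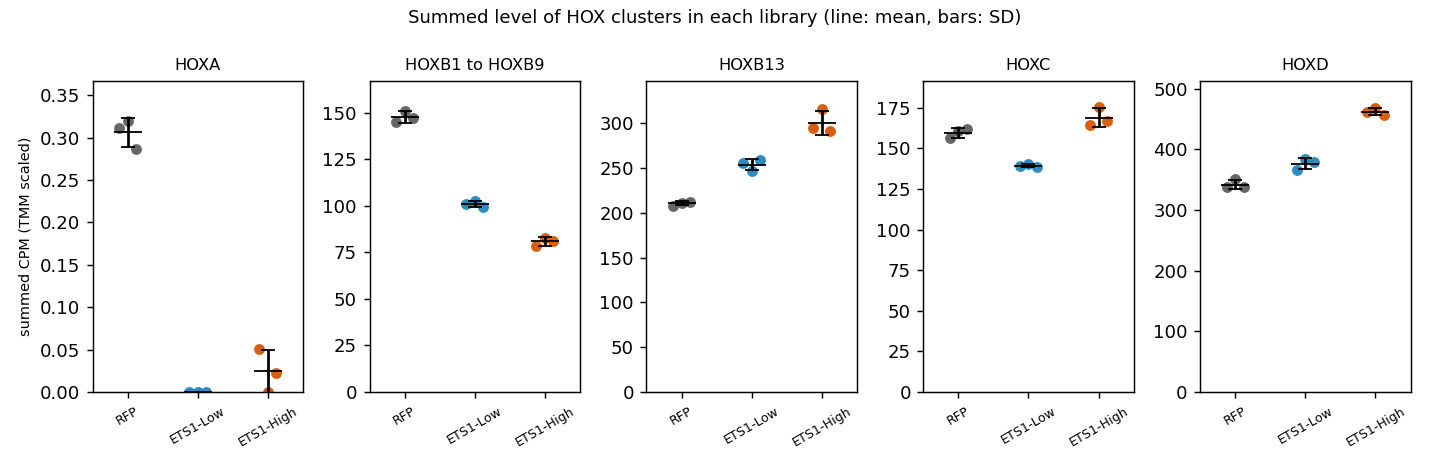
Summed TMM-scaled CPM of HOXA, HOXB1 to HOXB9, HOXB13, HOXC and HOXD in each library, each panel with its own axis from 0; points are libraries, the long line is the mean and the bars are the SD (n = 3). HOXB1 to HOXB9 are lowest and HOXB13 and HOXD highest in ETS1-High.

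In ETS1-High against RFP, 22 of the 26 tested HOX genes were called, 12 higher and 10 lower. Over all genes tested in this comparison 74.2% were called, 37% higher and 37.2% lower, beside 84.6% of the tested HOX genes. Most of the table changed, so a call by itself says little about HOX genes. The median log2 fold change of the 26 was 0.23, beside -0.01 for all genes. A change of at least 2-fold was called for 2 HOX genes higher and 4 lower, beside 9.64% and 11.4% of all genes, 21% in both directions. By cluster, 8 of 9 HOXB genes were lower and 1 higher, 5 of 9 HOXC genes were higher and 2 lower, and 6 of 8 HOXD genes were higher and none lower.

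In ETS1-Low against RFP, 18 HOX genes were called, 8 higher and 10 lower, which is 69.2% beside 74.1% of all genes (37.9% higher and 36.2% lower). At least 2-fold were none higher and 3 lower, beside 8.47% and 12.2% of all genes, 20.6% in both directions. The median was -0.03, beside 0.01 for all genes. HOXB had 6 lower and 2 higher, HOXC had 3 each way and HOXD had 3 higher and 1 lower. With library totals in place of TMM, the median of all genes moved to -0.12 and the HOX split to 5 higher and 14 lower. The same setting took the share of higher calls over all genes from 51.2% to 39.2%, and in ETS1-High against RFP it took the median to -0.11, the HOX median to 0.12 and the HOX split to 12 higher and 11 lower. On log2(FPKM + 1), limma gave a HOX median of -0.02 in ETS1-High over 24 HOX genes, with 10 higher and 11 lower. On log2(FPKM + 0.1) without a filter, the share of higher calls over all genes was 38.4% in ETS1-High, in place of 49.8%, and the HOX split was 10 higher and 12 lower. Small changes against RFP in either ETS1 group are therefore read relative to that shift.

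In ETS1-High against ETS1-Low, 19 HOX genes were called, 11 higher and 8 lower, which is 73.1% beside 59.2% of all genes (29.9% higher and 29.3% lower). None reached 2-fold, beside 9.74% of all genes, 6.05% higher and 3.69% lower. HOXB had 7 lower and 1 higher, HOXC had 5 higher and none lower, and HOXD had 5 higher and 1 lower. The comparisons share libraries, so they are given side by side below and their overlap is not counted as a result.

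**Figure D3:**
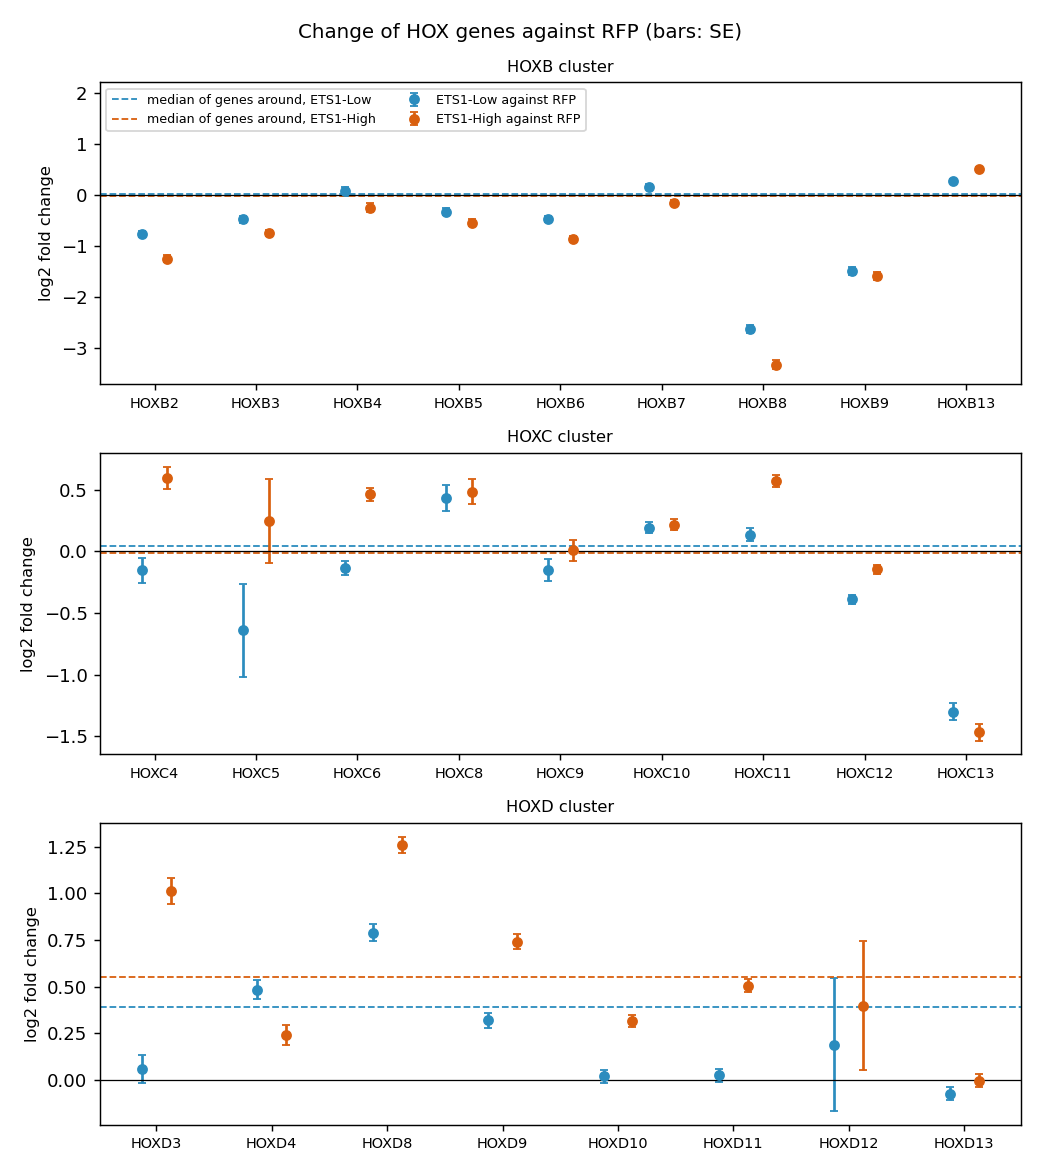
Log2 fold change of each tested HOX gene in ETS1-Low (blue) and ETS1-High (orange) against RFP, with bars of 1 SE, in order of paralogue number. Dashed lines are the medians of the non-HOX genes within 5 Mb of each cluster, near 0 for HOXB and HOXC and at 0.39 and 0.55 for HOXD; HOXB8, HOXB9 and HOXC13 lie furthest below.

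The genes with the largest falls were neighbours in HOXB. HOXB8, a gene of thoracic patterning and myeloid progenitors (chr17:48611377-48615292, minus strand, GRCh38), was at 19.4, 18.6 and 18.1 CPM in RFP. It was at 3.07, 3.00 and 3.05 CPM in ETS1-Low and at 1.85, 1.85 and 1.90 in ETS1-High. The groups did not overlap, and each ETS1-High library was below each ETS1-Low library. HOXB8 fell 10.0-fold in ETS1-High (log2 fold change -3.32, SE 0.088, edgeR adjusted p = 9.03e-36) and 6.16-fold in ETS1-Low (-2.62, SE 0.081, adjusted p = 1.17e-32). Between the ETS1 levels the log2 fold change was -0.70 (SE 0.11, adjusted p = 4.79e-07).

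HOXB9, which acts in rib and thoracic patterning, lies 5.86 kb from HOXB8 (chr17:48621156-48626358). It was at 13.2, 13.5 and 13.3 CPM in RFP, at 5.00, 4.49 and 4.71 in ETS1-Low and at 4.32, 4.67 and 4.37 in ETS1-High. Both ETS1 groups were below RFP and overlapped each other. HOXB9 fell, with log2 fold changes of -1.58 (SE 0.079, edgeR adjusted p = 8.34e-24) in ETS1-High and -1.50 (SE 0.079, adjusted p = 7.51e-23) in ETS1-Low, and ETS1-High against ETS1-Low gave -0.08 with an adjusted p of 0.443. HOXB2, a hindbrain gene at the other end of HOXB1 to HOXB9 (chr17:48540894-48545109), was at 20.9, 19.3 and 20.1 CPM in RFP, at 11.8, 11.8 and 11.7 in ETS1-Low and at 7.64, 9.48 and 8.17 in ETS1-High. Its 3 groups were separate and in the order of ETS1 level. HOXB2 fell, with log2 fold changes of -1.25 (SE 0.067, adjusted p = 1.44e-22) in ETS1-High and -0.77 (SE 0.065, adjusted p = 2.87e-15) in ETS1-Low.

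HOXB7, a gene linked to proliferation in several tumours, runs across HOXB8 and HOXB9 in the GENCODE v44 annotation through its longest transcript, without sharing their exons. It did not follow them. HOXB7 was at 22.7, 23.2 and 23.7 CPM in RFP, at 27.3, 25.2 and 25.2 in ETS1-Low and at 20.3, 21.1 and 21.0 in ETS1-High. It was called higher in ETS1-Low by 0.16 (edgeR adjusted p = 0.00293) and lower in ETS1-High at -0.16 (adjusted p = 0.00451). The rise in ETS1-Low is the size of the scaling shift: on FPKM the value was -0.003.

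The other HOXB genes fell less. HOXB6, with roles in trunk patterning and blood, was at 20.9, 22.1 and 21.3 CPM in RFP, 15.1, 15.2 and 15.7 in ETS1-Low and 12.1, 11.3 and 11.9 in ETS1-High, and fell, with log2 fold changes against RFP of -0.86 (ETS1-High) and -0.48 (ETS1-Low). HOXB3, a hindbrain and pharyngeal gene, was at 26.9, 30.9 and 27.1 CPM, then 18.6, 22.6 and 19.5, then 16.6, 17.1 and 16.9, and fell, with log2 fold changes of -0.75 and -0.48. The groups of both genes were separate, in the order RFP, ETS1-Low, ETS1-High. HOXB3 and HOXB6 share exons, and every one of their expected counts was a fraction in the deposited table, so reads were divided between genes and either value is uncertain. Without ETS1-Low replicate 2, the HOXB3 difference between ETS1-High and ETS1-Low went from -0.27 to -0.17. In limma on log2(FPKM + 1) it was -0.15 and not called.

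HOXB5, which acts in the gut's nervous system, was at 12.7, 16.1 and 15.8 CPM in RFP, 11.5, 11.7 and 12.3 in ETS1-Low and 9.90, 10.3 and 10.3 in ETS1-High. It fell in both ETS1 groups, at -0.55 and -0.33 in ETS1-High and ETS1-Low. ETS1-High was lower than ETS1-Low, at -0.21 (edgeR adjusted p = 0.0125), a call lost without ETS1-Low replicate 3 (-0.18, adjusted p = 0.0631). DESeq2's Wald test (-0.20) and limma on log2(FPKM + 1) (-0.15) did not call that HOXB5 difference either. HOXB4, a gene of blood stem cell expansion, had mean levels of 7.73 ± 0.45 CPM in RFP, 8.11 ± 0.86 in ETS1-Low and 6.48 ± 0.62 in ETS1-High (SD, n = 3). Its fall in ETS1-High, -0.25, was called with an adjusted p of 0.00864, but not without RFP replicate 1 (-0.21, adjusted p = 0.0510) or ETS1-High replicate 1 (-0.18, adjusted p = 0.0896). HOXB13 was the HOXB gene that rose, by 0.51 in ETS1-High (SE 0.031, adjusted p = 1.37e-20), by 0.27 in ETS1-Low (SE 0.031, adjusted p = 6.87e-11) and by 0.24 between the ETS1 levels.

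**Figure D4:**
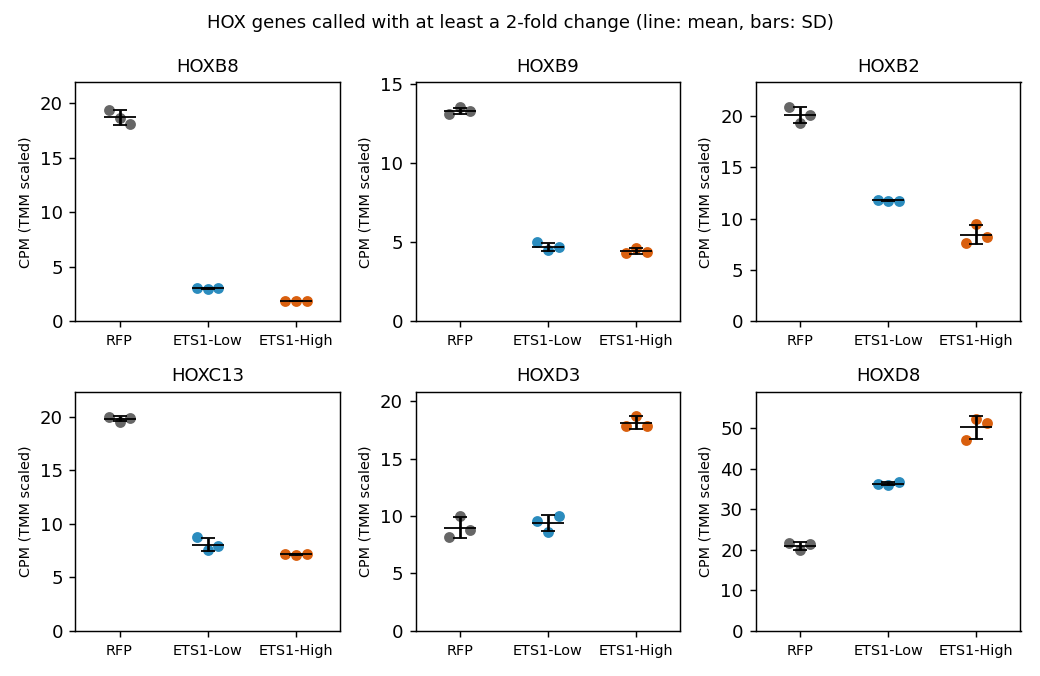
TMM-scaled CPM in each library for the 6 HOX genes called with a change of at least 2-fold, each panel with its own axis from 0; points are libraries, the long line is the mean and the bars are the SD (n = 3). HOXB8, HOXB9, HOXB2 and HOXC13 are lower in both ETS1 groups, HOXD8 is higher in both, and HOXD3 is higher in ETS1-High.

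HOXC13, the gene at the posterior end of HOXC known for hair and nail formation (chr12:53938831-53946544, plus strand), was the HOXC gene with the largest fall. It was at 20.01, 19.5 and 19.9 CPM in RFP, at 8.73, 7.52 and 7.96 in ETS1-Low and at 7.16, 7.12 and 7.21 in ETS1-High. Every library of both ETS1 groups was below every RFP library. The log2 fold change was -1.47 in ETS1-High (SE 0.068, edgeR adjusted p = 2.38e-25) and -1.30 in ETS1-Low (SE 0.067, adjusted p = 2.48e-23). Between the ETS1 levels it was -0.17 with an adjusted p of 0.0508, which became 0.0238 without ETS1-Low replicate 2 (-0.22). HOXC12, its neighbour 8.36 kb away, was at 51.2, 53.4 and 53.7 CPM in RFP, 40.6, 40.6 and 39.7 in ETS1-Low and 46.4, 50.3 and 46.2 in ETS1-High. It fell in both ETS1 groups, at -0.39 and -0.15 in ETS1-Low and ETS1-High, so its lowest group was ETS1-Low.

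The next gene, HOXC11, moved the other way. HOXC11, a hindlimb gene, was at 20.5, 19.0 and 20.5 CPM in RFP, at 22.01, 22.7 and 21.1 in ETS1-Low and at 28.3, 30.3 and 30.4 in ETS1-High. It rose by 0.57 in ETS1-High (SE 0.049, edgeR adjusted p = 8.08e-15). The rise of 0.13 in ETS1-Low was not called without RFP replicate 2 (0.10, adjusted p = 0.115) or ETS1-Low replicate 2 (0.11, adjusted p = 0.0882), and was 0.001 with library totals. HOXC10, which acts in hindlimb motor neurons and fat, was at 27.9, 27.8 and 30.3 CPM in RFP, 33.0, 32.8 and 32.4 in ETS1-Low and 31.9, 35.0 and 32.9 in ETS1-High. It was called higher by 0.21 in ETS1-High and 0.19 in ETS1-Low, but on FPKM these were 0.064 and -0.005, neither called.

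Of the genes on the anterior side of HOXC, HOXC6 and HOXC4 rose in ETS1-High. HOXC6, a thoracic and mammary gene, was at 21.4, 24.8 and 23.0 CPM in RFP, 19.0, 21.5 and 22.2 in ETS1-Low and 30.9, 33.3 and 30.9 in ETS1-High. It rose by 0.46 against RFP (edgeR adjusted p = 1.19e-09) and by 0.60 against ETS1-Low (adjusted p = 8.41e-12), and the RFP and ETS1-Low libraries overlapped. Its fall (-0.14) in ETS1-Low was called with all libraries, but not without RFP replicate 2 (-0.09, adjusted p = 0.186), RFP replicate 3 (-0.14, adjusted p = 0.0549) or ETS1-Low replicate 1 (-0.07, adjusted p = 0.255). HOXC4, a lymphocyte and cervical gene, was at 4.43 ± 0.19 CPM in RFP, 3.98 ± 0.23 in ETS1-Low and 6.69 ± 0.16 in ETS1-High (SD, n = 3) and rose by 0.59 in ETS1-High. HOXC4, HOXC5 and HOXC6 share exons with each other or with readthrough transcripts and had only fractional counts, so their values are uncertain.

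HOXC8, a thoracic gene, was at 4.08 ± 0.29 CPM in RFP, 5.52 ± 0.77 in ETS1-Low and 5.69 ± 0.49 in ETS1-High (SD, n = 3), and rose by 0.48 in ETS1-High and 0.43 in ETS1-Low. HOXC9, which acts in motor neuron columns, was at 6.48, 6.36 and 6.17 CPM, then 5.53, 5.91 and 5.69, then 7.06, 5.85 and 6.25. No comparison called it with TMM: ETS1-High gave 0.01 and ETS1-Low -0.15 on the log2 scale, although the latter was called at -0.20 with upper-quartile factors, at -0.28 with library totals, and by limma at -0.31 on log2(FPKM + 1) and -0.37 on log2(FPKM + 0.1). Limma on log2(FPKM + 1) also called ETS1-High against ETS1-Low at 0.18. HOXC5 had between 3 and 35 counts a library. Its difference of 0.89 between ETS1-High and ETS1-Low (edgeR adjusted p = 0.0415) was lost when any of 7 of the 9 libraries was left out. It was 0.46 without ETS1-Low replicate 1 and 1.61 without ETS1-Low replicate 3, where ETS1-Low against RFP was called at -1.36.

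In HOXD, the 6 genes HOXD3, HOXD4, HOXD8, HOXD9, HOXD10 and HOXD11 rose in ETS1-High. HOXD12 and HOXD13, at the posterior end, were not called with TMM, and HOXD1, at the anterior end, had too few counts to be tested. HOXD8, a gene of trunk and limb, was at 21.5, 19.9 and 21.4 CPM in RFP, at 36.3, 35.8 and 36.6 in ETS1-Low and at 46.9, 52.2 and 51.2 in ETS1-High. The groups were separate and followed the ETS1 level. HOXD8 rose by 1.26 in ETS1-High (SE 0.044, edgeR adjusted p = 1.52e-30), which is 2.39-fold, by 0.79 in ETS1-Low (SE 0.045, adjusted p = 1.98e-21) and by 0.47 between the ETS1 levels. HOXD3, a gene of neck vertebrae and cell adhesion, was at 8.19, 9.99 and 8.81 CPM in RFP, at 9.55, 8.63 and 9.99 in ETS1-Low and at 17.8, 18.8 and 17.9 in ETS1-High. RFP and ETS1-Low overlapped and ETS1-High stood above both. HOXD3 rose by 1.01 in ETS1-High (SE 0.070, adjusted p = 1.99e-18) and by 0.95 between the ETS1 levels (SE 0.071, adjusted p = 7.74e-17), while ETS1-Low against RFP gave 0.06 (adjusted p = 0.476).

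HOXD4, which lies inside the annotated span of HOXD3, had another order of groups. HOXD4, an anterior gene of neck vertebrae, was at 26.1, 27.5 and 23.4 CPM in RFP, at 34.1, 38.1 and 35.3 in ETS1-Low and at 31.8, 29.2 and 30.2 in ETS1-High. It rose by 0.48 in ETS1-Low and 0.24 in ETS1-High, and ETS1-High was lower than ETS1-Low, at -0.24 (edgeR adjusted p = 0.000122). The rise in ETS1-High was 0.13 and not called by limma on log2(FPKM + 1). HOXD3 and HOXD4 had only fractional counts, so reads were divided there too.

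The region just before the RefSeq start of 4 HOXD genes is shown because these genes had different orders of groups: highest in ETS1-High only for HOXD3, stepwise for HOXD8, highest in ETS1-Low for HOXD4, and near level for HOXD13. Windows are from RefSeq, GRCh38.p14, plus strand, 5′ to 3′, and 250 bases long, except HOXD8, whose window ends at its first annotated transcript start and is 239 bases. Capitals mark GGAA, the core that ETS proteins such as ETS1 bind, and TTCC, the same core on the other strand. Their positions are chr2:176129455-176129693 for HOXD8, chr2:176157057-176157306 for HOXD3, chr2:176151300-176151549 for HOXD4 and chr2:176092471-176092720 for HOXD13. The HOXD3 window lies inside the GENCODE span of HOXD3, whose first annotated start is chr2:176136612. Reads of HOXD3 may thus come from transcripts that start upstream of this window.
HOXD8: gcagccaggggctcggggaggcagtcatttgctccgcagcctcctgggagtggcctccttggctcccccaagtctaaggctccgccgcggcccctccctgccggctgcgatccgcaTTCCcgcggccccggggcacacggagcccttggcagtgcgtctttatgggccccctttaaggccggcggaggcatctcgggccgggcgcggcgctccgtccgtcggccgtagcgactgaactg
HOXD3: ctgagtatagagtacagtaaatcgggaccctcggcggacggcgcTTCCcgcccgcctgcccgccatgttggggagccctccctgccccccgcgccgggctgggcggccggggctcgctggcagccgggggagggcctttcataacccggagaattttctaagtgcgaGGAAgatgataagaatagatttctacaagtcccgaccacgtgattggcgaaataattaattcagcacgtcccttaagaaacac
HOXD4: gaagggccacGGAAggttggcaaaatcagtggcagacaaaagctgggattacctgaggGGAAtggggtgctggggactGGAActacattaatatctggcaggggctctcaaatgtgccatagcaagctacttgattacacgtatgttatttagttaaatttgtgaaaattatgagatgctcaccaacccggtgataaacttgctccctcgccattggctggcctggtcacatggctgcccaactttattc
HOXD13: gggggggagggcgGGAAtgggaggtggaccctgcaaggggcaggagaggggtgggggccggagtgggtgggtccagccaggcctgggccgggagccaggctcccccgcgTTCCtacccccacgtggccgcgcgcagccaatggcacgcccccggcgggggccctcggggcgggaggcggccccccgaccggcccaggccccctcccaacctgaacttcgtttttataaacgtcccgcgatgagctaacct

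The HOXD8 window holds 1 match, HOXD3 holds 2, HOXD4 holds 3 and HOXD13 holds 2. The longer motif CCGGAA, or its other strand, was in none of the 4. RefSeq windows were matched for 20 of the 39 HOX genes, and 16 of them held GGAA on either strand, with a median of 2 matches. Genes with no matched window include HOXB2 to HOXB9, HOXB13, HOXC6, HOXC8 to HOXC13 and HOXD9, so these counts leave out the HOX genes with the largest falls. HOXC4 and HOXC5 share the same window, which is counted for both. The 20 also include HOXB1, HOXD1 and most HOXA genes, which did not pass the filter on low counts. Over all 35116 promoter windows of the same length, 92.7% held GGAA on either strand, with a median of 3. CCGGAA was in 0 of the 20, beside 14.5% of all windows, and a tandem pair of GGAA was in 1, HOXA2, beside 3.06%. A match is a string of letters and not a measured binding site.

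HOXD10 and HOXD11, among the HOX genes with the highest levels, rose in ETS1-High and were not called in ETS1-Low. HOXD10 was at 109, 114 and 108 CPM in RFP, 106, 115 and 112 in ETS1-Low and 141, 133 and 135 in ETS1-High, a rise of 0.32 in ETS1-High (SE 0.033, edgeR adjusted p = 2.72e-12). HOXD11 was at 56.2, 56.0 and 57.3 CPM, then 56.2, 57.7 and 58.6, then 79.8, 83.6 and 77.2, a rise of 0.51 in ETS1-High (SE 0.034, adjusted p = 1.42e-18). For both genes the RFP and ETS1-Low libraries overlapped and ETS1-High was separate. In ETS1-Low their values were 0.02 and 0.03. With library totals both were called lower, at -0.11 (adjusted p = 0.00310 and 0.00553), and limma on log2(FPKM + 1) called both lower at -0.12 (adjusted p = 0.0228 and 0.00476). HOXD10 and HOXD11 share exons and had only fractional counts.

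HOXD9, a gene of limb and lumbar patterning, was at 38.8, 42.6 and 38.99 CPM in RFP, 47.7, 50.9 and 51.7 in ETS1-Low and 66.9, 67.5 and 67.0 in ETS1-High. It rose by 0.74 in ETS1-High (SE 0.038, edgeR adjusted p = 2.50e-23) and by 0.32 in ETS1-Low (SE 0.039, adjusted p = 4.38e-10), in separate groups. HOXD13, at the posterior end, was at 77.5, 80.5 and 80.4 CPM in RFP, 75.6, 76.6 and 74.3 in ETS1-Low and 77.2, 83.0 and 77.5 in ETS1-High. It gave -0.00 in ETS1-High (adjusted p = 0.918), and -0.11, called, with library totals. The fall (-0.07) in ETS1-Low (adjusted p = 0.0466) was lost when any of 7 of the 9 libraries was left out, with values from -0.08 to -0.06 among those 7. Between the ETS1 levels, 0.07 was not called, but 0.09 without ETS1-High replicate 1 was (adjusted p = 0.0396), as were 0.08 with DESeq2 size factors and 0.10 with library totals. HOXD12 had 11 to 26 counts a library and no call, with 0.40 in ETS1-High.

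The rise in HOXD was measured beside a rise in the genes around it. Of 44 non-HOX genes within 5 Mb of the cluster (chr2:176092721-176190907), 38 had a fold change above 0 in ETS1-High and 39 in ETS1-Low, with medians of 0.55 and 0.39. The medians around HOXA, HOXB and HOXC lay between -0.03 and -0.02 in ETS1-High and between -0.13 and 0.05 in ETS1-Low. Relative to its surroundings, HOXD8 remained higher by 0.71 in ETS1-High, HOXD3 by 0.46 and HOXD9 by 0.19. HOXD13 was at -0.56, HOXD4 at -0.31, HOXD10 at -0.24, HOXD12 at -0.16 and HOXD11 at -0.05, so 3 of the 8 lay above the local median and 5 below it. For HOXB, 8 of 9 lay below their local median in ETS1-High. The part of the regional change in the HOXD values was not tested beyond this subtraction.

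Single genes beside the clusters changed too. From here on, pairs of log2 fold changes are for ETS1-High and then ETS1-Low, each against RFP. EVX2, a homeobox gene beside HOXD13, was at 1.43 ± 0.20 CPM in RFP, 4.76 ± 0.56 in ETS1-Low and 6.32 ± 0.30 in ETS1-High (SD, n = 3), a rise of 2.15 in ETS1-High, while HOXD13 was level. LNPK, listed as KIAA1715, an endoplasmic reticulum gene on the same side, rose by 0.85 in ETS1-High and 0.49 in ETS1-Low. NFE2L2, the oxidative stress regulator of the same region, rose by 0.75 and 0.29. Beside HOXB13, TTLL6, a tubulin-modifying enzyme, was at 38.5 ± 2.36, 91.0 ± 0.53 and 113 ± 1.40 CPM and rose by 1.55 and 1.24. Beside HOXC, CBX5, which encodes the heterochromatin protein HP1 alpha, fell, with log2 fold changes of -0.86 and -1.19. Of 25 tested genes beside the clusters, 14 were higher and 6 lower in ETS1-High, and 16 and 6 in ETS1-Low. That is 80% and 88% called, beside 74.2% and 74.1% of all genes, and their medians were 0.31 and 0.23. These counts and medians pool genes beside all the clusters. They include the HOXD region, where most non-HOX genes had positive fold changes in both ETS1 groups.

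HOXA stayed close to silent, and the few reads seen came almost all from RFP. The 11 genes together had 15, 15 and 14 counts in the RFP libraries, 0 in each of the 3 ETS1-Low libraries, and 2, 0 and 1 in ETS1-High. HOXA10, a uterine and blood gene (chr7:27170605-27180261), had 7, 10 and 7 counts in RFP and 0 in all 6 ETS1 libraries, which is at least 2.40-fold lower in ETS1-High and 2.30-fold lower in ETS1-Low against a floor of 3 counts a library. HOXA13, the limb and hindgut gene at the posterior end, had 3, 2 and 4 counts in RFP and 0 elsewhere. HOXA9 had 3, 2 and 2 counts in RFP, none in ETS1-Low and 1 in a single ETS1-High library. With no filter on low counts, edgeR called HOXA10 (adjusted p = 5.81e-05 in ETS1-High and 7.33e-05 in ETS1-Low) and HOXA13 (0.0235 and 0.0260), and the counts of both genes were in RFP alone. HOXA3, HOXA4 and HOXA6 were at 0 in every library. In bulk RNA, a few cells with HOXA and a trace in every cell cannot be told apart.

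Of 19 antisense and other non-coding RNAs of the clusters that were looked up, 9 were tested. In ETS1-High 6 were lower and 1 higher, and in ETS1-Low 7 were lower and none higher. That is 77.8% called in each, beside 74.2% and 74.1% of all genes, of which 37.2% and 36.2% were lower. The medians were -0.71 and -0.99. HAGLR had 23 to 37 counts in the RFP libraries and 6 to 16 in the ETS1 libraries. HAGLROS had 15 to 19 and 7 to 13. Both passed the low-count filter mainly through RFP, where they were highest, so the tally leans toward lower calls. It is not read as a result about these RNAs. HOXC-AS5, also named HOXC13-AS and antisense to HOXC13, was at 1.53 ± 0.084 CPM in RFP, 0.399 ± 0.095 in ETS1-Low and 0.428 ± 0.13 in ETS1-High (SD, n = 3), and fell at -1.82 (ETS1-High) and -1.92 (ETS1-Low). HOTAIR, the HOXC non-coding RNA linked to Polycomb, was at 16.8 ± 0.46, 11.1 ± 0.68 and 13.8 ± 1.53 CPM and fell, with log2 fold changes of -0.27 and -0.60. HOXC-AS1 fell at -1.25 and -1.19, HOXC-AS2 at -0.71 and -0.93, HOXC-AS3 at -0.80 and -1.28, and HAGLR, in HOXD, at -1.20 and -1.82. In the ETS1 libraries HOXC-AS1 had 6 to 14 counts and HOXC-AS3 had 9 to 23. Their folds, like that of HAGLR, rest on few reads. So HAGLR was lower while HOXD3, whose exons it overlaps on the other strand, was higher in ETS1-High. HOXD-AS2 also overlaps HOXD3 exons on the other strand and went the same way as HOXD3. It was at 1.07 ± 0.25 CPM in RFP, 1.24 ± 0.26 in ETS1-Low and 1.55 ± 0.16 in ETS1-High. The library kit keeps strand, but whether counting used it is not given in the sources used here, so reads of a gene and its antisense partner may be mixed.

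Of the 12 TALE cofactors, all tested, 5 were higher and 6 lower in ETS1-High and 4 and 7 in ETS1-Low, with medians of -0.13 and -0.44. The share called was 91.7% in each, beside 74.2% and 74.1% of all genes. MEIS3 was at 15.3 ± 1.64 CPM in RFP, 6.12 ± 0.63 in ETS1-Low and 3.90 ± 0.17 in ETS1-High (SD, n = 3), and fell, with log2 fold changes of -1.97 and -1.31. PKNOX1, which encodes PREP1, rose by 0.72 and 0.34. The repressors of the same family moved apart: TGIF1 rose by 0.71 and 0.68, and TGIF2 fell, with a log2 fold change of -0.72 in both ETS1 groups.

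Of 44 regulators of HOX transcription, 40 were tested, with 19 higher and 16 lower in ETS1-High and 18 and 16 in ETS1-Low, with medians of 0.05 and 0.06. The shares called were 87.5% and 85%, beside 74.2% and 74.1% of all genes. PHF19, a Polycomb complex 2 subunit that binds methylated H3K36, was at 43.7 ± 2.24 CPM in RFP, 84.7 ± 1.58 in ETS1-Low and 187 ± 0.46 in ETS1-High (SD, n = 3), a rise of 2.10 and 0.96. JARID2, another partner of that complex, was at 91.0 ± 2.22, 35.7 ± 1.11 and 50.02 ± 0.72 CPM and fell, with log2 fold changes of -0.86 and -1.35. RARB, a retinoic acid receptor, was at 0.132 ± 0.043 CPM in RFP, 2.31 ± 0.28 in ETS1-Low and 5.87 ± 0.028 in ETS1-High. Retinoic acid is a known inducer of anterior HOX genes. HOXB2 and HOXB3 were lower in both ETS1 groups, and HOXD3 was higher in ETS1-High. The part of RARB in these values was not tested.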

How the data were processed

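Stranded mRNA-seq libraries were made from total RNA, per the labels' protocols. The authors deposited 2 gene tables, 1 of RSEM expected counts and 1 of FPKM values, per the file headers and names. The submitters' processing notes name cutadapt 4.4, STAR 2.7.3, featureCounts (Subread 2.0.3) and limma 3.38.3 with GRCh38 (hg38), and give no role or order. Which of these tools or RSEM made the counts, the annotation release and the use of strand in counting are not given in the sources used here.

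After rounding of the expected counts, genes were tested with edgeR 4.0.16 in R 4.3.3 (TMM, filterByExpr, robust glmQLFit and glmQLFTest) in 1 fit over the 9 libraries. The fit was also run on simulated data with few changed genes, as many higher as lower. Most genes were called in the comparisons against RFP, so that run cannot speak to their scaling. Adjusted p-values are Benjamini-Hochberg over all genes tested. Other settings used DESeq2 1.42.0 and limma 3.58.1, the latter on log2(FPKM + 1) and log2(FPKM + 0.1). Positions are from GENCODE v44 by gene ID (99.2% of tested genes matched). Values were given for each HOX gene called with at least 2-fold change and a mean of 20 counts, or with a mean of 5 FPKM, in a group; from other lists, at most 4 genes, ranked by p for ETS1-High against RFP, with a mean of 100 counts in a group, and antisense RNAs called at 2-fold with a mean of 20 counts. Genes of other lists named outside that rule, EVX2 among them, were chosen after their values were seen. A list gene that the rule also names, and a HOX gene with few counts, are not reported on their own here. Members and lists were chosen with earlier results of these data known.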

Additional observations from a re-analysis of the deposited data

Results flagged for a closer look

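Between the ETS1 levels, 19 of the 26 tested HOX genes were called by edgeR's test at an adjusted p under 0.05, which is 73.1% beside 59.2% of all genes. Clone and ETS1 level cannot be told apart. All values here are log2 fold changes of ETS1-High against ETS1-Low. In HOXB the lower genes were HOXB8 at -0.70, HOXB2 at -0.48, HOXB6 at -0.38, HOXB4 at -0.32, HOXB7 at -0.32, HOXB3 at -0.27 and HOXB5 at -0.21, and HOXB13 was higher at 0.24. The calls of HOXB3, HOXB4 and HOXB5 depend on the measure. Limma on log2(FPKM + 1) gave -0.15, -0.20 and -0.15 for them, none called, and limma on log2(FPKM + 0.1) did not call them either. HOXB5 was also not called by DESeq2's Wald test. In HOXC the higher genes were HOXC5 at 0.89, HOXC4 at 0.75, HOXC6 at 0.60, HOXC11 at 0.43 and HOXC12 at 0.24. The HOXC5 value rests on 3 to 35 counts a library, ran from 0.46 to 1.61 when single libraries were left out, and lost its call without any of 7 of the 9. In HOXD they were HOXD3 at 0.95, HOXD11 at 0.48, HOXD8 at 0.47, HOXD9 at 0.42 and HOXD10 at 0.30, with HOXD4 lower at -0.24. With TMM, HOXC6 was above RFP in ETS1-High and below it in ETS1-Low, and HOXB7 the reverse, but neither ETS1-Low call held under every alternative: the HOXC6 call was lost without any of 3 libraries, and HOXB7 was at -0.0027 on log2(FPKM + 1) and at 0.03, not called, with library totals.

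The same test called genes of the accompanying lists. ETS1 itself was at 0.85. Beside the clusters were NFE2L2 at 0.46, EVX2 at 0.41, KIAA1715 at 0.36, CBX5 at 0.32 and TTLL6 at 0.31, and HOTAIR was at 0.32. Among cofactors and regulators were RARB at 1.35, PHF19 at 1.14, JARID2 at 0.49, PKNOX1 at 0.38 and MEIS3 at -0.66. Among other homeobox genes and genes reported downstream of HOX proteins were TGFB2 at 1.92, HAND2 at 0.94, DLX1 at -0.28, DLX2 at -0.43, DLX5 at -1.62, DLX6 at -1.90 and GREM1 at -4.15.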

How the results depend on the processing

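The numbers of HOX genes called kept within 1.5 times of 22, 18 and 19 under every alternative run, from 21 to 24 in ETS1-High against RFP, 15 to 19 in ETS1-Low against RFP and 14 to 20 in ETS1-High against ETS1-Low. With the replicate number as a block, the counts stayed at 22, 18 and 19 and no call on a HOX gene changed. Libraries of the same number did not deviate together more than others (correlations from -0.06 to 0.061, beside -0.06 to 0.065). Correlations over all genes cannot show what the numbers stand for, and the labels do not say. Library totals in edgeR were added after seeing the data.

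Of the alternative values for single HOX genes and ETS1, with centring on the local median left aside, 1517 stayed called in the same direction or stayed uncalled, where the sign may differ. A call was lost for 52 and gained for 23, and 13 had another sign with a call under at least 1 of the settings. Those 13 follow, and their cause was not tested beyond the scaling shift given in the report. In ETS1-Low against RFP, HOXD10 was at -0.12 on log2(FPKM + 1) and on log2(FPKM + 0.1) and at -0.11 with library totals. HOXD11 was at -0.12 on each FPKM scale and without a filter, and at -0.11 with library totals. On FPKM with either pseudocount, HOXC10 was at -0.0053 and -0.0055 and HOXB7 at -0.0027 and -0.0029. Minus the local median, values called before and of the other sign after were these: HOXD9 in ETS1-Low was at -0.070, and in ETS1-High HOXD10 was at -0.24, HOXD11 at -0.047 and HOXD4 at -0.31.

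Summed FPKM and summed CPM differ both in the weight of long genes and in the scaling of libraries, and the parts of each were not separated. As log2 ratios in ETS1-High against RFP, ETS1-Low against RFP and ETS1-High against ETS1-Low, HOXB went from 0.09, -0.01 and 0.10 to -0.27, -0.31 and 0.037. HOXD went from 0.43, 0.14 and 0.30 to 0.36, 0.012 and 0.35. HOXC went from 0.08 and -0.20 to 0.015 and -0.29 against RFP. Depth limits HOXA, HOXB1, HOXC5, HOXD1 and HOXD12, which have few counts. It also limits the antisense RNAs HOXC-AS1, HOXC-AS3, HOXC-AS5 and HAGLR, which have few counts in the ETS1 groups.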

Other observations

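Homeobox genes outside the HOX clusters moved as well. Of 18 that were looked up, 9 were tested, and in ETS1-High 5 were higher and 4 lower, beside 74.2% of all genes called. The DLX genes, which act in craniofacial and limb skeleton, split by pair. DLX5 was at 87.3 ± 2.03 CPM in RFP, 58.5 ± 1.93 in ETS1-Low and 18.9 ± 1.19 in ETS1-High (SD, n = 3), and DLX6, its neighbour, was at 22.7 ± 1.19, 12.6 ± 0.62 and 3.36 ± 0.39. Against RFP both were called lower in each ETS1 group (edgeR log2 fold changes in ETS1-High of -2.20 and -2.75). DLX1 and DLX2 were called higher, at 0.45 and 0.55 in ETS1-High and 0.73 and 0.98 in ETS1-Low.

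Of 25 genes reported downstream of HOX proteins, 14 were tested, and in ETS1-High 6 were higher and 7 lower, which is 92.9% called beside 74.2% of all genes. HAND2, a limb bud and neural crest regulator, was at 41.0 ± 1.17 CPM in RFP, 110 ± 3.07 in ETS1-Low and 211 ± 2.03 in ETS1-High. SHH, the limb patterning signal, was at 5.31 ± 0.28, 25.2 ± 1.48 and 23.4 ± 0.78 CPM, and TGFB2, a growth factor, at 10.9 ± 0.54, 16.0 ± 0.90 and 60.8 ± 1.38. GREM1, a BMP inhibitor, was on opposite sides of RFP in the ETS1 groups, at 12.97 ± 0.76, 74.997 ± 0.92 and 4.23 ± 0.25 CPM (edgeR log2 fold changes of 2.53 in ETS1-Low and -1.62 in ETS1-High).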
